A study of Mus musculus with 7899 samples.

Results

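Amino acid transporters of the plasma membrane and lysosome were followed in mouse pancreatic β cells across pregnancy, in 3 knockout lines, under high-fat feeding and in islets kept in culture. The members are the genes whose symbol in the deposited tables belongs to the solute carrier families 1, 3, 7, 36, 38 and 43 or is one of 6 amino acid carriers named from family 6. By that rule 47 of the 21767 genes in the tables were members, and all 47 are protein-coding genes under the same name in the GENCODE annotation, spread over 18 chromosomes. The smaller Stat3 table lists 41 of them among 12791 genes, and the table of p300 mice all 47 among 21176. The murine Slc6a20a and Slc6a20b carry a letter that the rule does not match and are not members.

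Single β cells of female C57BL/6J mice were collected by flow sorting of dissociated, hand-picked islets and sequenced over full-length transcripts with the Smart-seq3xpress method. Reads of the 7897 cells were summed by group and replicate number into 100 libraries in 7 tables, and 2 further droplet samples of whole islets were not analysed here. One library each of G14.5, G18.5, P14L and HFD_G14.5 is not named as a biological replicate in the labels, and the sources used here state neither the ages of the mice nor how many animals a library holds, so p-values measure the spread between these libraries.

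The time course holds gestation days, which name the groups, in early (G3.5, G5.5 and G6.5), middle (G8.5, G10.5 and G12.5) and late gestation (G14.5, G16.5 and G18.5), and days 2, 7 and 14 after delivery (P2, P7, P14) in groups marked L and NL, letters that the labels do not spell out, all set against G0, which the labels number as gestation day 0. Acss2KO and Stat3KO mice were sampled with Acss2WT and Stat3WT mice at G0, G14.5 and G18.5, and p300KO with p300WT mice at G0 and G14.5. The sources used here state neither the knockout alleles nor the cell type in which they act. High-fat-diet (HFD) mice without a stated genotype were sampled at G14.5, P7NL and G0, HFD Acss2KO and HFD Acss2WT mice at G14.5 and G0, and Acss2WT mice on a diet marked SD at G14.5. Islets were cultured for 4 days in medium with human maternal serum (MS) or human normal serum (NS) and with 5 µM A485, an inhibitor of the p300 and CBP acetyltransferases, or 20 µM nifuroxazide, an inhibitor of STAT3 signalling, each against its own vehicle groups. Each group has 2 libraries, except G14.5, G18.5, P14L and HFD_G14.5, which have 3.

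Cells take up amino acids through families of carriers that differ in what they move and in what drives them. Light chains of family 7 exchange neutral, cationic or anionic amino acids and reach the membrane bound to a heavy chain of family 3, families 1, 6, 36 and 38 couple uptake to ions, and family 43 moves large neutral amino acids down their gradient. In β cells arginine, glutamine and leucine are known to amplify insulin release, and several carriers are textbook targets of ATF4, the transcription factor induced when amino acids run short. Values are CPM, each gene's reads relative to its library's total, scaled between libraries by the trimmed mean of M values (TMM), and a change was called at a Benjamini-Hochberg adjusted p under 0.05 over all genes of a table in edgeR's quasi-likelihood test.

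Library totals ran between 13273435 and 181405413 reads. All 8 β-cell markers (Ins1, Ins2, Iapp, Slc2a2, Pdx1, Nkx6-1, G6pc2 and Slc30a8) stood at 10 CPM or more in every library. This shows β-cell RNA in each library but does not measure how much came from other cells. In the time course, summed α-cell markers ran from 713 to 4745 CPM, δ-cell markers from 35.4 to 3863, pancreatic polypeptide markers from 98.99 to 2121, ductal markers from 103.7 to 292, immune markers from 13.5 to 149.2, hepatocyte markers from 2.86 to 512, endothelial markers from 1.60 to 10.46, acinar markers from 0.120 to 7.92 and stromal markers from 0 to 1.57 CPM. Outside the time course, α-cell markers reached 8784 CPM and acinar markers 300 CPM in the HFD set. Hepatocyte markers reached 633 CPM in the Acss2 set and ran from 322 to 416 CPM in the nifuroxazide set. Libraries of one table correlated at 0.929 to 0.992 and none was a copy of another. In such sums, fewer cells of a type and less RNA per cell cannot be told apart.

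At G0 the transporters were a small set of abundant genes and a long tail. Of the 47 members, 21 averaged 5 CPM or more, 22 averaged under 1 CPM and 11 had 0 reads in both libraries. Per kilobase of gene length, Slc3a2, the heavy chain known as CD98hc or 4F2hc, stood highest with 43.6 ± 4.06 CPM per kb (SD, n = 2). It stood apart from the next member, Slc38a4, a system A carrier of small neutral amino acids, with 23.7 ± 1.02 CPM per kb. Slc38a10, a family 38 member whose transport role is less well known, followed with 22.8 ± 1.08, the taurine carrier Slc6a6 with 21.9 ± 1.19, the lysosomal cationic member Slc7a14 with 18.49 ± 3.80 and the neutral light chain Slc7a8 (LAT2) with 18.1 ± 1.18 CPM per kb. From Slc38a4 down to Slc7a8, each member's G0 range overlapped that of the next.

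The next members per kilobase were Slc7a2, the cationic carrier CAT2 of arginine and lysine, with 15.7 ± 1.22 CPM per kb, and the large neutral carrier Slc43a2 (LAT4) with 13.98 ± 2.07 CPM per kb. Their ranges overlapped. The light chain Slc7a5 (LAT1) and the system A carrier Slc38a2 (SNAT2) closed the highest 10 with 11.5 ± 0.344 and 11.3 ± 1.42 CPM per kb, also with overlapping ranges. Several carriers that are prominent in other tissues were almost unread. The system A carrier Slc38a1 and the large neutral carrier Slc43a1 had 0 reads at G0, and the 5 glutamate transporters of family 1 together made up 0.00178%, 0.000666% and 0.00950% of the members' summed level per kilobase in the G14.5 libraries, against 0.00113% and 0.0518% in the G0 libraries, so that the groups overlapped. In 12 members no library of any table reached 1 CPM.

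**Figure D1:**
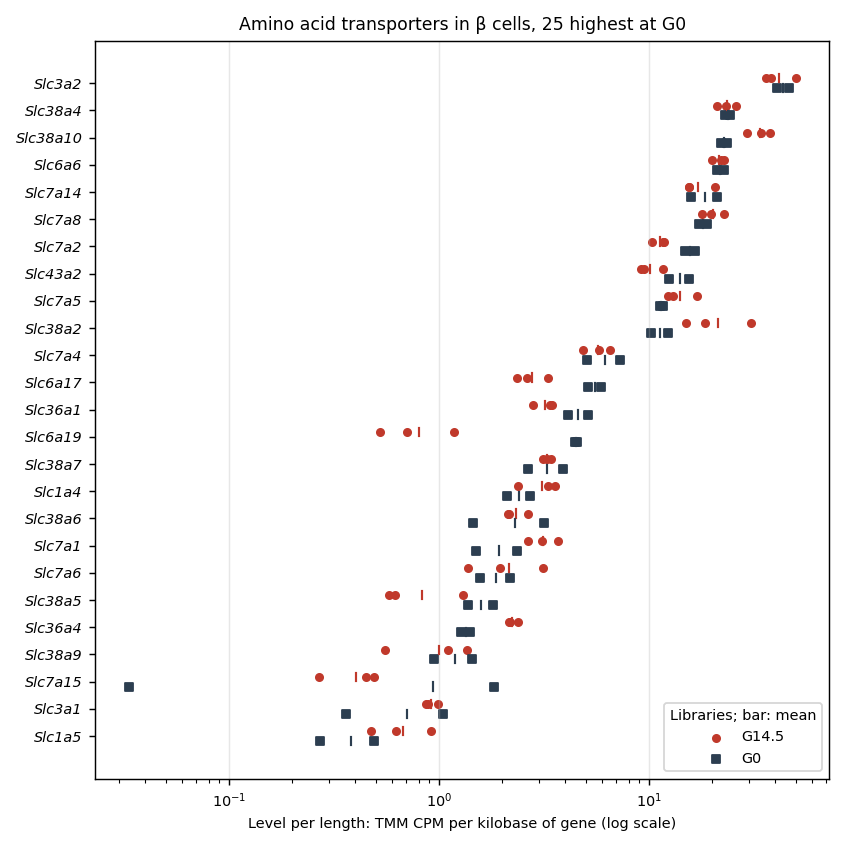
Level per kilobase of gene length (CPM per kb, log axis) of the 25 members with the highest G0 level, each point being 1 library of the time course, with G14.5 as circles above G0 as squares. Slc3a2 lies at the top in both groups, and Slc6a19 shows G14.5 points well to the left of its G0 points.

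The members' summed level differed little between G14.5 and G0, while shares of some groups of carriers differed. Summed over all 47 members it was 248 ± 3.24 CPM per kb at G14.5 (n = 3) and 240 ± 2.21 at G0 (SD, n = 2), and it was 241 ± 8.69 at G16.5 (n = 2) and 261 ± 20.9 at G18.5 (n = 3). Over the time course it was highest at G5.5 (285 CPM per kb) and lowest at G8.5 (236). System A carriers made up 18.1 ± 3.46% of it at G14.5 and 14.6 ± 0.0328% at G0, but 14.3 ± 0.397% at G16.5 and 15.02 ± 0.631% at G18.5. At G14.5 and G0, the group of Slc38a6, Slc38a8, Slc38a10 and Slc38a11 made up 14.6 ± 1.88% and 10.52 ± 0.0522%, with 17.5 ± 0.0324% at G16.5 and 15.8 ± 0.934% at G18.5. Family 6 made up 10.2 ± 0.697% at G14.5 and 13.3 ± 0.826% at G0, and the cationic carriers 5.87 ± 0.605% and 7.35 ± 0.304%. Heavy chains made up 17.1 ± 3.00% at G14.5 and 18.4 ± 1.72% at G0, a difference smaller than the spread at G14.5. These shares are descriptions and were given no test. Slc3a2 per kilobase was 0.834 to 1.90 times the sum of its 6 light chains over the 35 libraries, with a median of 1.35.

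Within single cells, a similar number of transporters was read in both groups. When each cell was thinned to 200000 reads, a mean of 15.3 ± 0.644 of the 47 members had a read per cell at G14.5 (n = 3 libraries) and 16.2 ± 0.120 at G0 (n = 2). Without thinning the means were 17.5 ± 0.522 and 17.9 ± 0.0272. After thinning, Slc3a2 was read in 98.01 ± 2.59% of cells at G14.5 and 99.6 ± 0.590% at G0, and Slc38a10 in 99.9 ± 0.175% and 99.3 ± 0.935%. Slc6a19 was read in 17.1 ± 5.17% of cells at G14.5, against 43.2 ± 1.53% at G0. Without thinning its shares were 28.3 ± 9.45% and 51.4 ± 3.96%. Genes of cells that the sort should leave out gave the background for such shares. After thinning, the acinar gene Cpa1 was read in 0.943% of cells at G14.5 and 2.15% at G0, and the endothelial gene Pecam1 in 0.503% and 2.64%. Gcg, the α-cell hormone gene, was read in 98.4% and 100% of cells, so that its share separates no cell types here.

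Over the time course, 14 of the 38 members tested were called in an any-group test, which takes all groups jointly, against 17.4% of all genes tested. This test does not name the groups that differ. Slc36a1, Slc38a3, Slc38a4, Slc38a5, Slc7a5 and Slc7a8 were called in it but in no single comparison of the time course. Slc38a2, Slc7a1, Slc7a7, Slc7a11 and Slc7a14 were called against G0 at single days but not in the any-group test. The days with the most calls among the members lay in mid and late gestation, as did those among all genes. Of all genes, 5.79% were called at G8.5, 10.1% at G14.5 and 7.25% at G16.5, against 0.579% to 1.65% on the days of early gestation. No member was called at G3.5, where 0.579% of all genes were called and 7 members had an unadjusted p under 0.05, although DESeq2 called 4. At G14.5, 4 members rose and 4 fell, 8 of 38 tested, where 10.1% of all genes were called, 5.96% higher and 4.15% lower. The median log2 fold change of the 38 was -0.01, and that of all genes 0.01. With cells weighted equally, a setting that here and below also leaves out TMM scaling, the calls over all genes were 411 higher and 462 lower. In edgeR's fit they were 916 higher and 638 lower.

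Slc38a10 rose at 6 of the gestation days sampled. Its libraries held 133.8, 173.2 and 157.2 CPM at G14.5, against 100.8 and 107.8 CPM at G0. Every G14.5 library lay above both G0 libraries. Its log2 fold change was 0.57 ± 0.13 (SE; adjusted p = 0.00371), and without G0 replicate 1 the adjusted p was 0.0606. It was also called higher at G6.5 (0.55 ± 0.14, adjusted p = 0.0351), G8.5 (0.68 ± 0.14, 0.00275), G10.5 (0.80 ± 0.14, 0.000707), G16.5 (0.81 ± 0.14, 0.000358) and G18.5 (0.77 ± 0.13, 0.000218). At G10.5, G16.5 and G18.5 the call held without any one library, whereas at G6.5 it was lost without any one of the 4 libraries (adjusted p up to 0.178) and at G8.5 without G8.5 replicate 2 (0.0541). Both G16.5 libraries, at 172.5 and 192.04 CPM, lay above both G0 libraries. These groups all share the same 2 G0 libraries. Slc38a10 lies at chr11:120103960-120151346 on the minus strand (GRCm38).

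Slc38a2, Slc7a1 and Slc7a11, carriers known to be induced by ATF4, also rose at G14.5, although none of them was called in the any-group test. Slc38a2 had 142.1, 69.7 and 85.5 CPM at G14.5, against 56.8 and 47.5 CPM at G0, with the first G14.5 library far above the other ones and no overlap. Its log2 fold change was 0.92 ± 0.23 (adjusted p = 0.00812), and the call was lost without G14.5 replicate 1 or G0 replicate 2 (adjusted p up to 0.117). Slc7a1, the arginine and lysine carrier CAT1, had 22.2, 19.03 and 26.5 CPM at G14.5, against 16.9 and 10.8 CPM at G0. The groups did not overlap, but the margin was small. The log2 fold change was 0.69 ± 0.21 (adjusted p = 0.0323), and the call was lost without G14.5 replicate 1 or 3 or G0 replicate 2 (adjusted p up to 0.415). With cells weighted equally, neither Slc38a2 (0.0890) nor Slc7a1 (0.288) was called.

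Slc7a11, the xCT light chain that imports cystine in exchange for glutamate and so feeds glutathione synthesis, was rare. It had 2.20, 0.393 and 0.414 CPM at G14.5, against 0 reads in both G0 libraries. Taken against a floor of 3 reads over the G0 group, its pooled level at G14.5 was 28.2 times that floor (adjusted p = 0.00734 in edgeR's test). This ratio takes reads as independent, while they came from few cells, so it is no firm limit on the fold. Without either G0 library the adjusted p rose above the threshold, up to 0.103. Reads of Slc7a11 came from 24 of 317 cells at G14.5 and from no cell at G0, where the cell number allows a share of cells with a read of up to 2.80%, which is no limit on cells that express the gene below detection. It was also called at G8.5, G10.5, G12.5, G16.5 and G18.5, and at P7NL, with pooled levels of 13.8, 47.6, 48.5, 14.9, 40.2 and 55.7 times the floor. Since all of these share the G0 libraries without a read, they are not separate tests of the G0 level, and each of these calls too was lost without G0 replicate 1 or without G0 replicate 2 (adjusted p up to 0.236). At G16.5 leaving out replicate 2 of that day, and at G8.5 and P7NL leaving out any one library, had the same effect. Weighting cells equally ended every Slc7a11 call in the time course, with adjusted p between 0.140 and 0.623.

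The promoters of the ATF4-related carriers were read for the composite element TGATGNAAN, which ATF4 binds with C/EBP partners, and for TTCNNNGAA, the core that STAT factors bind, on both strands. Of the 47 members, 35 have a window of 250 bases before to 50 after a transcript start in RefSeq (GRCm38.p6). Among all 32851 such windows, 3.95% held TGATGNAAN and 8.3% held TTCNNNGAA, and of the 49 windows of the members 4 held each motif, in 3 and 4 genes. The Slc7a11 stretch is shown because it held both motifs, the first of them at 2 places, and the Slc7a1 stretch because that carrier rose beside it. Capitals mark the motifs, in the direction of transcription, and no motif overlaps another. The Slc7a11 stretch runs from 200 to 31 bases before the start, chr3:50443644-50443813 on the minus strand, and the Slc7a1 stretch is 40 bases long and begins 160 bases before one start of that gene, chr5:148392936-148392975 on the minus strand.
Slc7a11: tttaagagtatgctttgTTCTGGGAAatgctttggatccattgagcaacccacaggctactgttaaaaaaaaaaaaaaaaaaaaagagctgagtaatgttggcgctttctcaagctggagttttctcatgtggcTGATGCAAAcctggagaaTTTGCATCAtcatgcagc
Slc7a1: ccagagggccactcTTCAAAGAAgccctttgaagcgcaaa
Slc38a2 and Slc38a10, which rose as well, held neither motif in their windows. A match describes letters in these windows and shows no binding.

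Among the members that fell at G14.5, all of which reached 5 CPM, Slc6a19 had the largest change. Slc6a19 encodes B0AT1, the sodium-coupled carrier of neutral amino acids best known from the gut and kidney brush border. It had 2.19, 4.95 and 2.95 CPM at G14.5, against 18.7 and 18.95 CPM at G0. All G14.5 libraries lay far below both G0 libraries, and the log2 fold change was -2.48 ± 0.44 (adjusted p = 0.000312). The adjusted p stayed at or under 0.00413 without any one library. Slc6a19 was also called lower at G8.5 (-1.70 ± 0.49), G10.5 (-1.83 ± 0.50), G12.5 (-2.07 ± 0.50), G16.5 (-1.91 ± 0.50) and G18.5 (-1.45 ± 0.43), with adjusted p between 0.0115 and 0.0464. At G10.5 and G18.5 the call was lost without any one library, at G8.5 without either G0 library or G8.5 replicate 1, and at G12.5 and G16.5 without G0 replicate 2 or replicate 2 of that day (adjusted p up to 0.366). Weighting cells equally also ended these 5 calls, while at G14.5 the adjusted p was then 0.00721. In no other group of the time course did a library reach the G0 level, the nearest being one P7NL library at 16.1 CPM. The gene lies at chr13:73679745-73704865 on the minus strand. Tmem27, a membrane protein that carries Slc6a19 to the surface in kidney, was tested at G14.5 and was not called.

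Slc6a17, a vesicular carrier of neutral amino acids known from neurons, fell as well. It had 16.55, 20.9 and 14.9 CPM at G14.5, against 32.5 and 37.3 CPM at G0, with a wide gap between the groups. Its log2 fold change was -0.996 ± 0.20 (adjusted p = 0.00102) and the adjusted p stayed at or under 0.0251 without any one library. Slc43a2 had 65.6, 83.4 and 67.9 CPM at G14.5, against 110.4 and 89.4 CPM at G0, with groups close but apart. The log2 fold change was -0.47 ± 0.14 (adjusted p = 0.0312), and the call was lost without G0 replicate 1, G14.5 replicate 1 or G14.5 replicate 3 (adjusted p up to 0.362). Slc43a2 was also lower at G8.5 (-0.74 ± 0.16, adjusted p = 0.00400), where G0 replicate 1 decided the call (0.0763 without it).

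Slc7a2 fell to 93.8, 81.5 and 92.6 CPM at G14.5, against 117.2 and 130.8 CPM at G0. The groups did not overlap. Its log2 fold change was -0.47 ± 0.16 (adjusted p = 0.0477), and leaving out any one of the 5 libraries took it past the threshold, up to 0.286. The change was larger at G16.5, with 63.2 and 79.2 CPM and a log2 fold change of -0.80 ± 0.17 (adjusted p = 0.00375), a call that was lost without G16.5 replicate 1 or G0 replicate 2 (up to 0.0751). Summed α-cell markers were lower beside it, with 891 to 1494 CPM at G14.5 and 1480 to 3038 CPM at G0, and 1 of the 8 at 0 reads in at least one library of each group. With cells holding over 5% of other hormones left out, the log2 fold change of Slc7a2 at G14.5 was -0.49 (adjusted p = 0.0414). That setting removed 1 of 72 cells in G0 replicate 1, 0 in G0 replicate 2 and 0 in each G14.5 library. It could therefore hardly move the value, and the part of α-cell RNA was not tested.

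**Figure D2:**
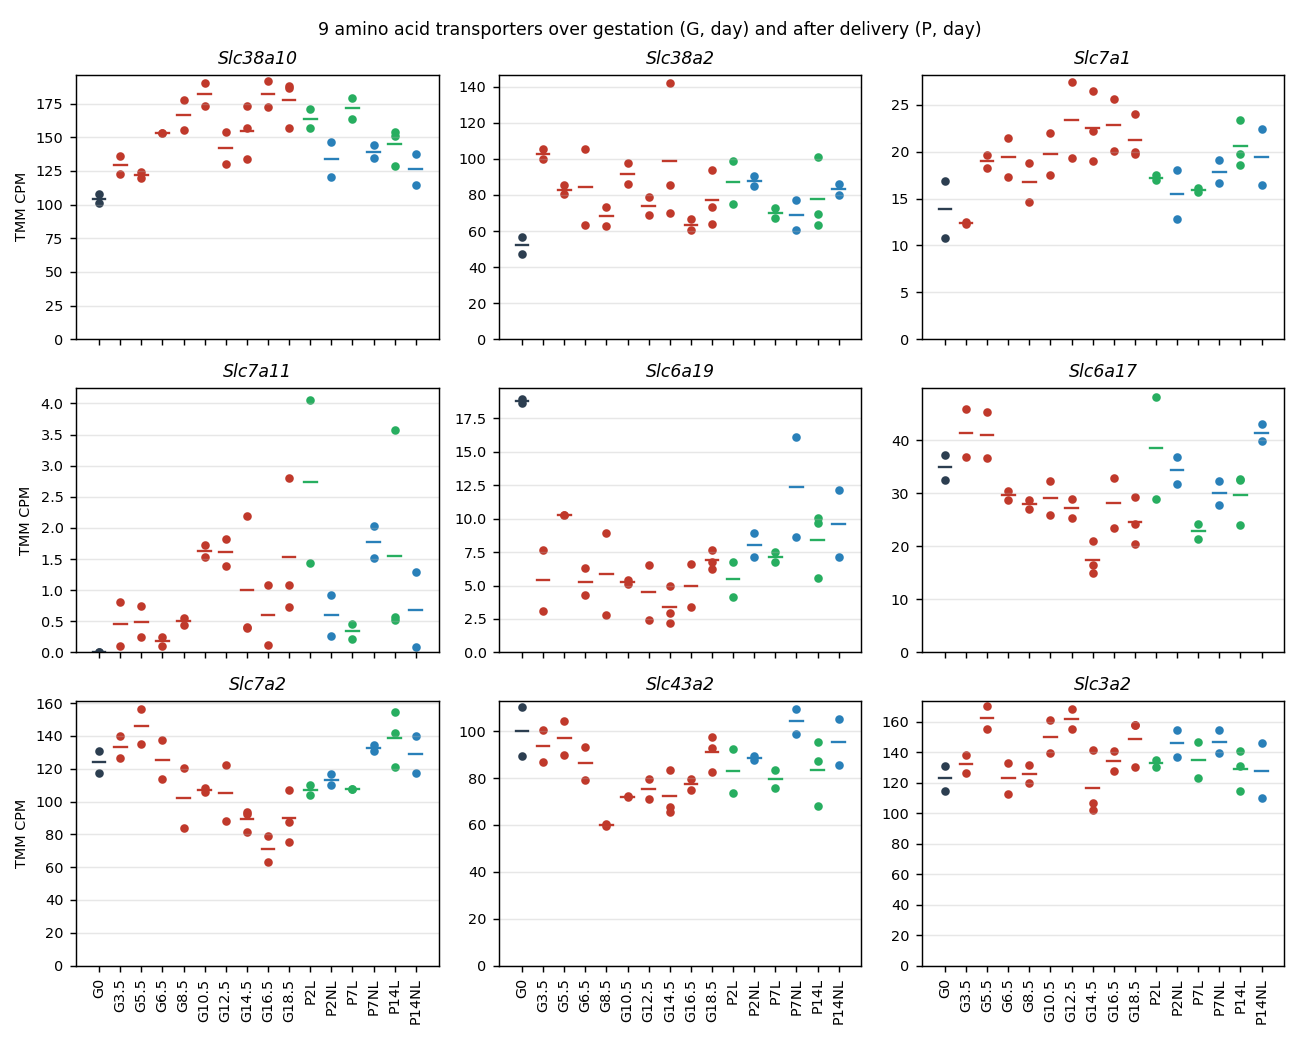
CPM of 9 members in each library of the time course, with G0 dark, gestation days red, L groups green and NL groups blue, and a bar at each group mean. Slc38a10 lies above its G0 points in every later group, and Slc6a19 lies below them.

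Other calls in the time course touched single stages. At G8.5, where 5.79% of all genes were called against 6 of 38 members, Slc6a6 fell to 77.3 and 86.97 CPM, against 129.8 and 140.2 CPM at G0 (log2 fold change -0.72 ± 0.17, adjusted p = 0.00777). Slc7a4, a cationic-branch member with no settled substrate, had 31.4 and 38.8 CPM at G8.5, against 23.98 and 16.6 CPM at G0 (0.78 ± 0.21, adjusted p = 0.0185). Both were apart from G0, and both calls were lost without G0 replicate 2 or one G8.5 library, replicate 1 for Slc6a6 and replicate 2 for Slc7a4. With cells weighted equally, Slc6a6 stayed called and Slc7a4 did not (adjusted p = 0.138). Hepatocyte markers summed to 357 to 512 CPM in the G8.5 libraries and 10.9 to 21.04 CPM in the G0 libraries, and their part in the G8.5 calls was not tested.

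Slc7a14 fell at G16.5 with 97.4 and 132.4 CPM, against 139.8 and 187.3 CPM at G0 (-0.51 ± 0.15, adjusted p = 0.0318). The groups lay close together without overlap, and the call was lost without G16.5 replicate 1 or G0 replicate 2. It was also lost with cells weighted equally (adjusted p = 0.124). Of members under 5 CPM, Slc1a5 was called lower at G5.5 (0.122 and 0.110 CPM, against 0.762 and 1.37 CPM at G0; adjusted p = 0.0282, and up to 0.211 without G0 replicate 2 or either G5.5 library) and Slc7a7, the y+LAT1 light chain, higher at G18.5. At G18.5 the 3 libraries of Slc7a7 had 2.33, 2.71 and 6.13 CPM, against 0.0317 and 0 CPM at G0. The call was lost without either G0 library or G18.5 replicate 3 (up to 0.201). Slc7a7 is known from macrophages. The 6 immune markers in the table summed to 59.1 to 92.7 CPM at G18.5 and 27.4 to 57.3 CPM at G0, 4 of them at 0 reads in some library of each group, and Ptprc was read in no cell of either group, which allows shares of cells with a read of up to 0.877% and 2.80% and sets no limit on immune cells in which Ptprc went undetected. Their part in the call was not tested. In the groups not yet named, members called against all genes called were 1 of 38 against 1.57% at G5.5, 1 against 1.65% at G6.5, 3 against 2.76% at G10.5, 2 against 5.03% at G12.5, 5 against 7.25% at G16.5 and 4 against 4.77% at G18.5.

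The carriers most often studied for leucine and glutamine supply were not called at G14.5, which does not show them unchanged over the time course. In the any-group test Slc7a5 (adjusted p = 0.00497), Slc7a8 (0.0346), Slc38a4 (0.00225) and Slc1a5 (0.00822) were called, and Slc3a2 was not. Slc3a2 had 106.7, 141.04 and 101.8 CPM at G14.5 and 130.8 and 114.6 CPM at G0, with overlapping groups (log2 fold change -0.08 ± 0.14). Slc7a5 had 45.6, 43.3 and 59.3 CPM at G14.5 and 41.2 and 39.5 CPM at G0 (0.29 ± 0.18, adjusted p = 0.350). Slc7a8 had 79.8, 71.8 and 92.2 CPM at G14.5 and 69.7 and 76.4 CPM at G0 (0.15 ± 0.12, adjusted p = 0.492). Slc7a5 lay above G0 in every G14.5 library, and Slc7a8 overlapped. Slc1a5, the glutamine exchanger ASCT2, was low throughout, with 1.33, 2.58 and 1.76 CPM at G14.5 and 0.762 and 1.37 CPM at G0 (0.84 ± 0.63). Slc38a4 had 91.3, 83.1 and 102.3 CPM at G14.5 and 90.3 and 96.001 CPM at G0 (-0.01 ± 0.13), the groups overlapping.

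After delivery few members were called against G0, and none was called between the L and NL groups. In edgeR's test no member was called at P2NL (0.572% of all genes) or P14NL (0.280%), with 6 and 11 members at an unadjusted p under 0.05, and DESeq2 called 1 in each. At P7NL, Slc7a11 alone was called (0.462%). P2L against P2NL, P7L against P7NL and P14L against P14NL each gave 0 of 38 members, with 4, 5 and 3 members at an unadjusted p under 0.05 and 0 calls by DESeq2, while 0.124%, 0.839% and 0.722% of all genes were called. Slc6a19 had 6.72 and 7.49 CPM at P7L, against 16.1 and 8.61 CPM at P7NL, and 5.54, 10.1 and 9.68 CPM at P14L, against 12.2 and 7.10 CPM at P14NL.

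Genes that handle amino acids downstream of the carriers were read as fixed lists, chosen with earlier results of these data known. Over all genes tested at G14.5, 5.96% were called higher and 4.15% lower. Of 18 genes of the amino acid response, 6 rose and 0 fell at G14.5, with a median log2 fold change of 0.68 against 0.01 for all genes. They were Nupr1 (1.83), Eif4ebp1 (1.197), Phgdh (1.04), which opens serine synthesis, Mthfd2 (0.87), Cebpg (0.77) and the asparagine synthetase gene Asns (0.59). Of 22 genes of amino acid sensing by mTORC1, 3 rose (Rheb, Rraga and Lamtor2) and 2 fell (Tsc1 and Tsc2), with a median of 0.01. Of 9 enzymes of glutamine and glutamate, Gpt2 rose (1.69) and Glul and Glud1 fell (-0.63 and -0.56). Gsr, which reduces glutathione, was the 1 riser among 5 genes of glutathione synthesis and recycling (0.91). None of the 8 mitochondrial amino acid carriers or of the 6 tested among 9 other amino acid and peptide carriers was called.

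The G14.5 against G0 comparison was made in 10 sets of mice, each with its own G0 libraries, and 1 transporter was called lower in most of them. Slc7a2 was below its own G0 in 10 of 10 sets, its libraries were apart in 9, and it was called lower in 6, with log2 fold changes from -1.49 to -0.25 and a median of -0.88. How many of all genes did as much was not counted. Slc7a2 had 64.2 and 82.3 CPM in Acss2KO at G14.5, against 120.9 and 141.1 CPM at G0 (-0.84 ± 0.16, adjusted p = 0.00626). In Acss2WT it had 77.4 and 91.7 CPM at G14.5, against 138.2 and 133.4 CPM at G0 (-0.68 ± 0.16, adjusted p = 0.0285). Both genotypes showed groups without overlap. In p300KO it had 66.7 and 55.4 CPM at G14.5, against 87.2 and 117.98 CPM at G0, which was not called (-0.75 ± 0.21, adjusted p = 0.0785), and in p300WT 70.7 and 102.6 CPM, against 172.8 and 188.1 CPM (-1.06 ± 0.21, adjusted p = 0.0241). The p300KO libraries at G0 were themselves below the p300WT ones.

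On a high-fat diet Slc7a2 had 62.8, 100.7 and 82.2 CPM at G14.5, against 143.6 and 181.7 CPM at G0 (-0.99 ± 0.25, adjusted p = 0.0477). In HFD Acss2KO it had 66.6 and 73.9 CPM at G14.5, against 156.98 and 237.9 CPM at G0 (-1.49 ± 0.29, adjusted p = 0.00717), and in HFD Acss2WT 113.3 and 68.2 CPM, against 136.7 and 244.9 CPM (-1.07 ± 0.28, adjusted p = 0.0578). All 3 were apart. Stat3KO was the set whose libraries overlapped, with 92.9 and 177.8 CPM at G14.5, against 180.9 and 142.01 CPM at G0 (-0.25 ± 0.25). In Stat3WT Slc7a2 had 117.8 and 109.7 CPM at G14.5, against 200.95 and 229.97 CPM at G0 (-0.92 ± 0.26, adjusted p = 0.0895). In the HFD set without a stated genotype, summed α-cell markers stood at 2716 to 8784 CPM at G14.5 and 2089 to 2652 CPM at G0. Such sums are not given here for the other sets outside the time course, and their part in the Slc7a2 values was not tested. Single libraries decided several of these calls: in Acss2KO the second at G0 or the first at G14.5 (adjusted p up to 0.139), in Acss2WT any one of the 4 (0.191), in p300WT the first at G14.5 (0.112), in HFD Acss2KO the first at G14.5 (0.0698), and in the HFD set either at G0 or replicate 1 or 3 at G14.5 (0.523). With cells weighted equally, the Slc7a2 call remained in HFD Acss2KO (adjusted p = 0.0421) and was lost in the other 5 sets that had it.

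Other members moved one way in most sets with few calls. The share of all genes that did so was not counted, so the numbers of sets are descriptions. Slc6a19 was below its own G0 in 10 of 10 sets, apart in 8 and called in 1, with log2 fold changes from -2.48 to -0.50. Slc38a4 was below G0 in 10 of 10 sets, apart in 7 and called in 1, and Slc36a1, the lysosomal proton-coupled carrier PAT1, was below in 10 of 10 and called in none. Slc43a2 was below in 9 of 10 sets and called in 2. Slc38a10 was above G0 in all 8 sets that tested it, apart in 7 and called in 1 (0.21 to 0.57), and Slc7a8 was above in 10 of 10 with no call (0.01 to 0.51). Slc7a11 was above in 10 of 10, called in 1. Slc38a2 split evenly, with 5 sets above G0 and 5 below.

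**Figure D3:**
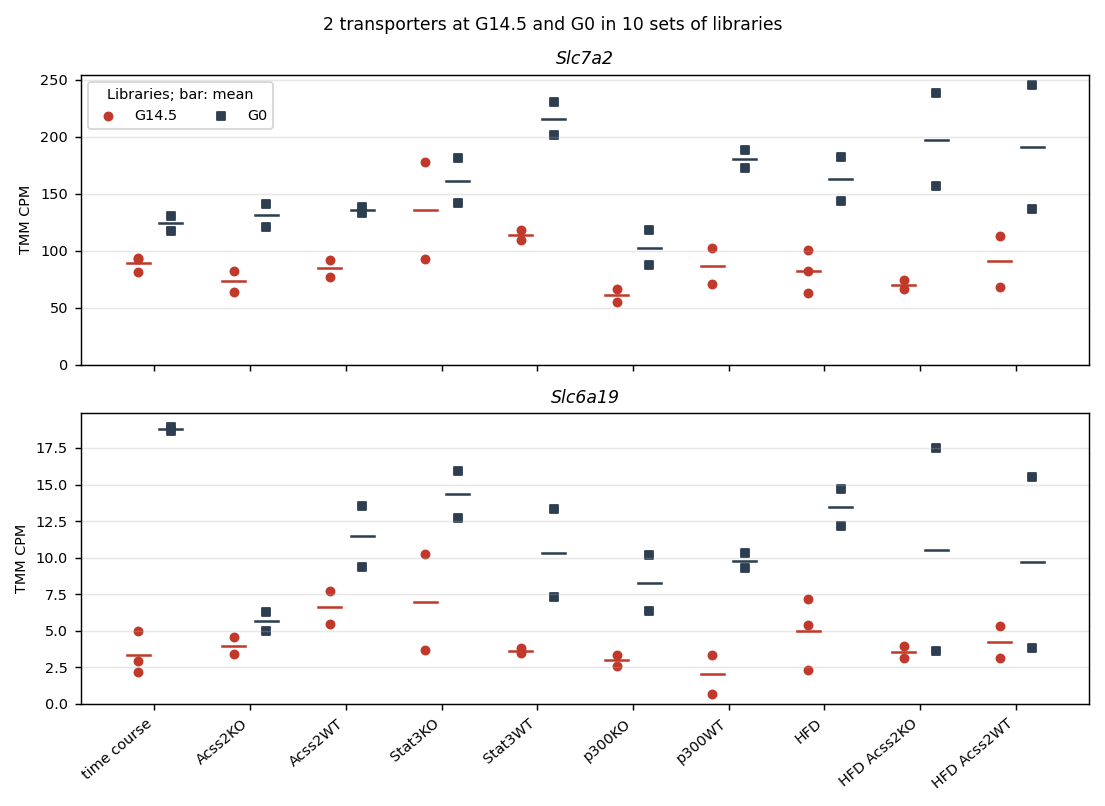
CPM of Slc7a2 (top) and Slc6a19 (bottom) in each library of the 10 sets of mice, with G14.5 left of G0 in each set and a bar at each group mean; tables were scaled separately, so levels are compared within a set. Slc7a2 lies below its own G0 at G14.5 in every set except Stat3KO, where the libraries overlap.

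In Acss2KO mice, which target the enzyme that makes acetyl-CoA from acetate, no transporter was called against Acss2WT mice. Acss2 itself had 11.3 and 9.76 CPM in Acss2KO at G0, against 17.996 and 26.1 CPM in Acss2WT. At G18.5 it had 21.7 and 15.8 CPM in Acss2KO, against 27.3 and 32.2 CPM in Acss2WT. At G14.5 it had 17.9 and 19.03 CPM in Acss2KO, against 25.5 and 38.5 CPM in Acss2WT. It was lower in Acss2KO at each stage but still read, and its difference over the stages was not called (log2 fold change -0.84 ± 0.14, adjusted p = 0.140). Of 33 members tested, 0 were called in Acss2KO against Acss2WT over the stages (0.00711% of all genes), at G0 (0.00711%), at G14.5 (0.0213%) or at G18.5 (0.149%), with 2, 1, 6 and 6 members at an unadjusted p under 0.05. DESeq2 called 0, 0, 1 and 2. The median log2 fold change of the members at G14.5 was -0.19, against -0.01 for all genes. The genotype by G14.5 interaction also called 0 members (0.0213%), with 3 at an unadjusted p under 0.05 and 0 by DESeq2.

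Within the Acss2 genotypes, 2 members fell at G14.5 in each. In Acss2KO (4.35% of all genes called) these were Slc7a2, given above, and Slc38a4, which had 76.2 and 81.1 CPM at G14.5, against 136.99 and 130.1 CPM at G0 (-0.76 ± 0.15, adjusted p = 0.00794). Slc38a4 was apart from G0, and the call was lost without any one of the 4 libraries (adjusted p up to 0.113). In Acss2WT (2.92%) these were Slc7a2 and Slc43a2, which had 55.1 and 49.3 CPM at G14.5, against 111.2 and 106.2 CPM at G0. Its log2 fold change was -1.06 ± 0.19 (adjusted p = 0.00380), and the call held without any one library. Chac1, an amino acid response gene that degrades glutathione, was lower in Acss2KO than in Acss2WT at G14.5 (-1.87) and was the only gene of the 18 called. It had 22.05 and 20.9 CPM in Acss2KO, against 89.4 and 67.1 CPM in Acss2WT. The Acss2WT libraries marked SD, which were scaled apart with the HFD ones, had 36.5 and 26.8 CPM at G14.5. Its call was not examined with single libraries left out.

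In Stat3KO mice, which target a transcription factor of cytokine and prolactin-family signalling, none of 31 members was called. Stat3 was still read in Stat3KO, with 66.1 and 49.4 CPM at G0, against 65.9 and 70.8 CPM in Stat3WT. At G14.5 it had 67.4 and 73.7 CPM in Stat3KO, against 80.3 and 90.2 CPM in Stat3WT, and at G18.5 60.7 and 67.5 CPM, against 78.3 and 86.5 CPM. Its libraries overlapped at G0 and were apart at both later stages, and it was not called lower (-0.29 ± 0.11 over the stages, adjusted p = 0.608). In Stat3KO against Stat3WT, 0 members were called over the stages (0.0098% of all genes), at G0 (0%), at G14.5 (0.0098%) and at G18.5 (0.0196%), with 4, 8, 3 and 8 members at an unadjusted p under 0.05, and DESeq2 called 0, 0, 0 and 2. At G18.5 the median log2 fold change of the members was -0.60, and that of all genes 0.01. The 15 amino acid response genes of this table stood apart beside it, with sums of 1042.5 and 1157.2 CPM in Stat3KO at G18.5, against 2273.5 and 2371.2 CPM in Stat3WT. At G0 and G14.5 the Stat3WT libraries summed to between 885.9 and 1356.3 CPM, so the G18.5 Stat3WT libraries lay above all others of their genotype. Slc7a1 had 17.8 and 21.3 CPM in Stat3KO at G18.5, against 39.5 and 42.4 CPM in Stat3WT, and the part of these libraries in the members' median was not tested. At G14.5 against G0, 0 members were called in Stat3KO (1.70%) and in Stat3WT (1.74%), with 6 and 5 members at an unadjusted p under 0.05 and 1 call by DESeq2 in each. The interaction of genotype with G14.5 called 0 (0%), with 3 at an unadjusted p under 0.05 and 1 by DESeq2.

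In p300KO mice, which target the acetyltransferase gene Ep300, Slc7a2 was lower over the stages and Slc38a6 at G0. Ep300 had 15.9 and 11.9 CPM in p300KO at G0, against 24.2 and 36.7 CPM in p300WT, and 20.4 and 19.7 CPM at G14.5, against 27.5 and 37.2 CPM. It was apart at both stages, and was called lower over the stages (-0.91 ± 0.18, adjusted p = 0.0225). Slc7a2 (values above) was the 1 of 34 members called over the stages (-0.66 ± 0.15, adjusted p = 0.0349), where 2.78% of all genes were called. Its p300KO and p300WT libraries overlapped when the stages were pooled, and the call was lost without p300KO replicate 1 or p300WT replicate 2 at G0, or without p300KO replicate 2 or p300WT replicate 2 at G14.5 (adjusted p up to 0.128). Slc38a6, a family 38 member with no settled role in islets, had 6.48 and 8.30 CPM in p300KO at G0, against 20.6 and 19.6 CPM in p300WT (-1.44 ± 0.31, adjusted p = 0.0381; 1.54% of all genes). The libraries were well apart at G0, and without any one of them the adjusted p lay between 0.0622 and 0.199. With cells weighted equally, neither Slc7a2 over the stages (0.164) nor Slc38a6 (0.0941) was called, and of all genes called at G0 81.9% were higher, against 30.9% in edgeR's fit. At G14.5 Slc38a6 had 11.2 and 9.24 CPM in p300KO, against 8.97 and 13.7 CPM in p300WT. At that stage 0 members were called (0% of all genes), with 3 at an unadjusted p under 0.05 and 0 calls by DESeq2. At G14.5 against G0, 0 members were called in p300KO (3.27%), with 6 at an unadjusted p under 0.05 and 3 calls by DESeq2, and Slc7a2 was the 1 member called in p300WT (2.15%). The genotype by G14.5 interaction called 0 members (0.0668%), with 3 at an unadjusted p under 0.05 and 0 by DESeq2.

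On a high-fat diet, Slc7a2 was the 1 of 33 members called at G14.5 against G0 (1.95% of all genes) and in HFD Acss2KO at G14.5 against G0 (3.85%). HFD Acss2WT at G14.5 against G0 gave 0 calls (1.93%), with 10 members at an unadjusted p under 0.05 and 4 calls by DESeq2. Acss2 had 17.3 and 16.4 CPM in HFD Acss2KO at G14.5, against 48.1 and 41.9 CPM in HFD Acss2WT, and 18.8 and 11.5 CPM at G0, against 21.2 and 21.4 CPM. It was apart at both stages (over the stages -0.95 ± 0.15, adjusted p = 0.0363). HFD Acss2KO against HFD Acss2WT gave 0 members over the stages (0.0213%), at G14.5 (0.0638%) and at G0 (0%), with 4, 4 and 6 members at an unadjusted p under 0.05 and 0 calls by DESeq2. The interaction of genotype with G14.5 on this diet gave 0 (0.0142%), with 4 members at an unadjusted p under 0.05 and 0 by DESeq2. HFD P7NL gave 0 members against HFD G14.5 (1.32%) and 0 against HFD G0 (0%), with 10 and 1 at an unadjusted p under 0.05 and 1 and 0 calls by DESeq2. HFD against SD in Acss2WT at G14.5 also gave 0 (0.213%), with 3 members at an unadjusted p under 0.05 and 1 call by DESeq2.

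In cultured islets, A485 gave the largest set of calls among the transporters. Taken as the mean over both sera, 1 member rose and 11 fell of 34 tested, where 11.2% of all genes were called, 3.73% higher and 7.5% lower. The median log2 fold change of the members was -0.38, against -0.02 for all genes. Slc7a14 had the smallest adjusted p of the members. It had 134.6 and 124.8 CPM in MS with A485, against 293.7 and 338.4 CPM in MS with vehicle, and 149.4 and 156.1 CPM in NS with A485, against 236.3 and 253.1 CPM in NS with vehicle. Every A485 library lay below every vehicle library (log2 fold change -0.98 ± 0.09, adjusted p = 0.000124), and the call held without any one library and under all 7 alternatives.

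Both system A carriers tested, Slc38a4 and Slc38a2, fell. Slc38a4 had 94.9 and 86.7 CPM in MS with A485, against 166.3 and 161.5 CPM with vehicle, and 119.6 and 109.6 CPM in NS with A485, against 156.8 and 183.4 CPM with vehicle (-0.71 ± 0.10, adjusted p = 0.00116). Slc38a2 had 64.9 and 77.9 CPM in MS with A485, against 94.4 and 84.3 CPM, and 67.2 and 83.7 CPM in NS with A485, against 126.6 and 118.2 CPM (-0.51 ± 0.11, adjusted p = 0.0146). Both were apart in both sera. Without NS_A485 replicate 1 or MS_A485 replicate 1 the Slc38a2 call was lost (adjusted p up to 0.0685).

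Of the light chains of Slc3a2, Slc7a5, Slc7a7 and Slc7a11 fell as well, while Slc7a6, Slc7a8 and Slc7a10 were not called. Of the cationic carriers, Slc7a1 and Slc7a2 fell and Slc7a3 was not called. Slc7a5 had 42.8 and 50.8 CPM in MS with A485, against 83.3 and 79.6 CPM with vehicle, and 45.9 and 44.4 CPM in NS with A485, against 61.05 and 100.5 CPM with vehicle (-0.82 ± 0.15, adjusted p = 0.00486). Slc7a1 had 19.6 and 23.4 CPM in MS with A485, against 26.9 and 33.6 CPM, and 17.4 and 18.9 CPM in NS with A485, against 30.1 and 43.6 CPM (-0.76 ± 0.16, adjusted p = 0.0127). Neither overlapped between A485 and vehicle, and both calls held without any one library. Slc7a11 had 0.359 and 1.84 CPM in MS with A485, against 5.07 and 5.23 CPM, and 1.23 and 0.0889 CPM in NS with A485, against 3.89 and 13.5 CPM (-2.96 ± 0.74, adjusted p = 0.0253). Its A485 libraries were all lower, and the call was lost without MS_A485 replicate 1, NS_A485 replicate 2 or NS_A485Ctrl replicate 2 (up to 0.0815). Slc3a1, the heavy chain that pairs with Slc7a9 in kidney, had 1.10 and 1.27 CPM in MS with A485, against 4.88 and 5.04 CPM, and 1.06 and 1.91 CPM in NS with A485, against 5.39 and 5.62 CPM (-1.98 ± 0.44, adjusted p = 0.0151). It was apart in both sera, and its call was lost without NS_A485 replicate 1 (0.0587).

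The other 4 members that fell overlapped between A485 and vehicle when the sera were pooled. Slc6a6 (-0.49 ± 0.11, adjusted p = 0.0193) had 140.8 and 124.4 CPM in MS with A485, against 199.7 and 152.7 CPM, and 152.7 and 136.95 CPM in NS with A485, against 232.8 and 196.2 CPM. Slc7a2 (-0.52 ± 0.12, adjusted p = 0.0186) had 97.4 and 66.3 CPM in MS with A485, against 102.6 and 102.9 CPM, and 128.1 and 118.2 CPM in NS with A485, against 210.6 and 195.01 CPM. Within each serum both were apart, both changed sign when each cell was given equal weight (0.0427 and 0.0075), and both were lost without NS_A485 replicate 2, Slc6a6 also without MS_A485 replicate 2 (adjusted p up to 0.0779). Slc7a7 had 0.265 and 1.21 CPM in MS with A485, against 2.35 and 22.9 CPM, so that MS_A485Ctrl replicate 2 decided its call (adjusted p = 0.0113 with it and 0.112 without it). Summed immune markers were 4.29 to 9.57 CPM with A485 and 14.4 to 47.8 CPM with vehicle, and their part in the Slc7a7 call was not tested. Slc1a1, the glutamate carrier EAAT3, reached 12.6 CPM in that same vehicle library and 2.09 CPM at most elsewhere (adjusted p = 0.0428), and the call was lost without MS_A485 replicate 1, MS_A485Ctrl replicate 2, either NS_A485 library or NS_A485Ctrl replicate 1 (up to 0.395).

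Slc43a2 was the member that rose with A485. It had 121.04 and 113.9 CPM in MS with A485, against 106.3 and 98.98 CPM with vehicle, and 150.8 and 122.8 CPM in NS with A485, against 88.5 and 100.5 CPM with vehicle. The A485 libraries were all higher (0.36 ± 0.10, adjusted p = 0.0447), but the call was lost without any one library except NS_A485 replicate 2 and NS_A485Ctrl replicate 2 (adjusted p up to 0.187), and the adjusted p was 0.0521 with cells holding over 5% of other hormones left out. The 8 β-cell markers summed to 406040 to 539470 CPM with A485, against 500990 to 657300 CPM with vehicle. When each cell was given equal weight and TMM scaling was left out, the median log2 fold change of all genes moved by 0.45. The split of all calls then went to 5604 higher and 466 lower, against 505 higher and 1016 lower in edgeR's fit. Of the 11 members that fell, 7 were no longer called (Slc38a2, Slc38a4, Slc1a1, Slc6a6, Slc7a2, Slc7a5 and Slc7a1, adjusted p from 0.0690 to 0.971). Weighting and scaling cannot be told apart in this setting.

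**Figure D4:**
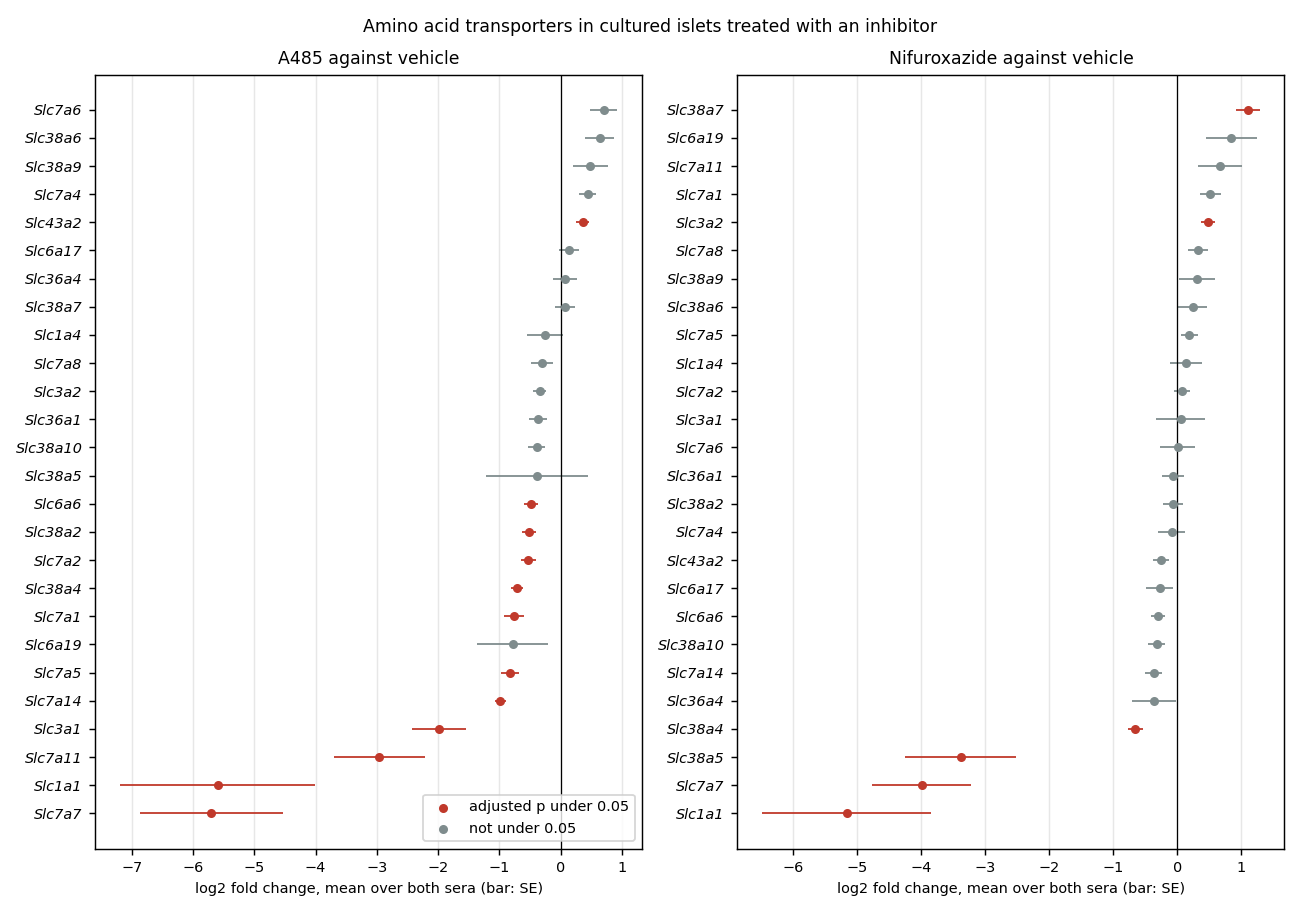
Log2 fold change against vehicle of the members that averaged 5 CPM or more at G0 of the time course or were called with either inhibitor, as the mean over both sera, with bars of 1 standard error, for A485 (left) and nifuroxazide (right); members called in edgeR's test are red. With A485 every called member except Slc43a2 lies left of 0, and with nifuroxazide Slc38a7 and Slc3a2 lie right of 0 and the other 4 called members left of it.

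Taken by serum, A485 lowered 3 members in NS (Slc7a14, Slc38a2 and Slc7a1; 2.57% of all genes called, 2% lower) and 2 in MS (Slc7a14 and Slc38a4; 3.3%, with 2.6% lower). In NS the Slc38a2 and Slc7a14 calls were lost without any one of the 4 libraries. The Slc7a1 call in NS was lost without either A485 library or NS_A485Ctrl replicate 2. In MS the Slc38a4 call was lost without MS_A485 replicate 2. With cells weighted equally, all 3 NS calls (adjusted p from 0.290 to 0.804) and the Slc38a4 call in MS (0.107) were lost. Slc7a14 then stayed called in MS (0.0209). Of all genes called, 94.5% were then higher in NS, against 22.4% in edgeR's fit, and 89.4% in MS, against 21.3%. The A485 by serum interaction called 0 members (0.00738%), with 3 at an unadjusted p under 0.05 and 0 by DESeq2, so the sera were not shown to differ. Between the sera in vehicle, Slc7a2 was lower in MS than in NS with 102.6 and 102.9 CPM, against 210.6 and 195.01 CPM (-0.98 ± 0.17, adjusted p = 0.0321; 0.657% of all genes). These groups were apart, and the call was lost without MS_A485Ctrl replicate 2 or either NS_A485Ctrl library (up to 0.110) and with cells weighted equally (0.150). In the nifuroxazide set, MS against NS in vehicle gave 0 members (1.02%), with 8 at an unadjusted p under 0.05 and 5 by DESeq2, and Slc7a2 had 176.3 and 142.5 CPM in MS and 155.97 and 207.7 CPM in NS. As the mean over both sera, 3.73% of all genes were called higher and 7.5% lower with A485. Of the 18 amino acid response genes, 8 fell and 0 rose with A485, among them Nupr1 (-1.94), the serine synthesis gene Psat1 (-1.73), Trib3 (-1.01), Ddit3 (-0.997) and Atf4 itself (-0.38), with a median of -0.61. Tmem27 (-0.50), Slc16a10 (-0.56), which carries aromatic amino acids, Glul (-0.66) and Glud1 (-0.63) fell too, and none of the 8 mitochondrial carriers, 22 mTORC1 genes or 5 glutathione genes was called.

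Nifuroxazide gave 2 members higher and 4 lower of 34, where 4.07% of all genes were called, 1.77% higher and 2.3% lower. With cells weighted equally and without TMM scaling, which moved the median of all genes by 0.25, 87.02% of all genes called were higher, against 43.5% in edgeR's fit. Slc38a4, Slc7a7 and Slc1a1 were called lower with either inhibitor, and the inhibitors were not tested against each other. Slc38a7, the lysosomal carrier that exports glutamine, had 36.9 and 37.1 CPM in MS with nifuroxazide, against 20.7 and 22.3 CPM with vehicle, and 41.7 and 72.4 CPM in NS with nifuroxazide, against 22.4 and 20.3 CPM with vehicle. All 4 treated libraries lay above all 4 vehicle libraries (1.10 ± 0.19, adjusted p = 0.00495), and the call held without any one library. Slc3a2 had 284.99 and 279.7 CPM in MS with nifuroxazide, against 204.9 and 196.1 CPM, and 275.2 and 310.2 CPM in NS with nifuroxazide, against 183.6 and 238.9 CPM (0.48 ± 0.11, adjusted p = 0.0330). It was apart as well, although the call was lost without either MS_Nif library, MS_NifCtrl replicate 2, NS_Nif replicate 2 or NS_NifCtrl replicate 1 (adjusted p up to 0.135).

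Slc38a4 fell with nifuroxazide too. It had 129.9 and 155.3 CPM in MS with nifuroxazide, against 216.9 and 176.9 CPM with vehicle, and 175.4 and 148.3 CPM in NS with nifuroxazide, against 303.1 and 277.7 CPM with vehicle. No treated library reached a vehicle library (-0.65 ± 0.12, adjusted p = 0.00842). The call held without any one library but was lost with cells weighted equally (0.0871). Slc38a5, a system N carrier, Slc7a7 and Slc1a1 were also called lower. Slc7a7 stood at 1.13 and 0.623 CPM in MS with nifuroxazide, against 4.43 and 16.002 CPM, and at 0 and 0.0957 CPM in NS with nifuroxazide, against 0.806 and 1.52 CPM (adjusted p = 0.0107, and 0.117 without MS_NifCtrl replicate 2). Slc1a1 stood at 0 and 0.264 CPM in MS with nifuroxazide, against 7.51 and 8.74 CPM, and was under 0.1 CPM in all 4 NS libraries (adjusted p = 0.0496). Slc38a5 stayed under 5 CPM in all 8 libraries, and its call (adjusted p = 0.0474) was lost without any one library except NS_Nif replicate 1 (up to 0.205). The Slc1a1 call was lost without any one library except MS_Nif replicate 2 (up to 0.140). Immune markers summed to 58.9 to 76.2 CPM with nifuroxazide and 27.7 to 81.97 CPM with vehicle, α-cell markers to 651 to 1094 CPM and 1168 to 4339 CPM, and their part was not tested.

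Slc7a11 had 13.6 and 11.3 CPM in MS with nifuroxazide, against 8.44 and 4.01 CPM, and 8.25 and 5.36 CPM in NS with nifuroxazide, against 4.96 and 5.79 CPM, and was not called (0.67 ± 0.34, adjusted p = 0.337). By serum, Slc38a7 (1.42) and Slc38a4 (-0.84) were called in NS (1.99% of all genes; both lost without NS_Nif replicate 2 or either NS_NifCtrl library, up to 0.141, and Slc38a4 also with cells weighted equally, 0.174) and 0 members in MS (0.697%), with 10 at an unadjusted p under 0.05 and 3 by DESeq2. The nifuroxazide by serum interaction called 0 (0% of all genes), with 2 at an unadjusted p under 0.05 and 0 by DESeq2. As the mean over both sera, 1.77% of all genes were called higher and 2.3% lower with nifuroxazide. Of the 18 amino acid response genes, 6 rose with nifuroxazide, namely Trib3 (2.34), Ddit3 (2.27), Nupr1 (2.09), Atf5 (1.06), Cebpg (0.73) and Sesn2 (0.68), and Phgdh fell (-0.96). Of 4 glutathione genes tested, Gclc (1.34), Gclm (1.08) and Gsr (0.58) rose, and Gclc and Gclm together make the first enzyme of glutathione synthesis. Of 22 mTORC1 genes, Rragd (0.94), Flcn (0.80) and Rragc (0.62), all tied to the lysosome, rose and 0 fell. Glul rose (0.92), Tmem27 fell (-0.73), and no mitochondrial carrier (8 tested) or other carrier (5 tested) was called.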

How the data were processed

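Per the submitters' processing notes, reads were trimmed with Trimmomatic 0.39 and counted per gene with featureCounts 2.0.1 on GRCm38 (mm10). Neither the aligner nor the use of strand in counting is given in the sources. The authors deposited raw read counts per cell in 7 tables that also list gene length in bases. Counts are reads, not molecules, so intervals and limits cover counting error only. Counts were summed by group and replicate into 100 libraries of 13273435 to 181405413 reads. One edgeR 4.0.16 quasi-likelihood model was fitted per table (R 4.3.3; TMM scaling; filterByExpr with a minimum count of 10; no covariates), with Benjamini-Hochberg adjustment over all genes tested and calls at 0.05. Tables were scaled separately, and tests were made only within a table. Levels per kilobase are TMM-scaled CPM divided by the deposited gene length. Cell shares were taken after thinning each cell to 200000 reads, leaving out shallower cells. A fold against 0 reads is a ratio to a floor of 3 reads over the group, and it does not cover the spread between cells. Doublets were not removed.

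Alternatives were DESeq2 1.42.0, its size factors in edgeR, no filter on low counts, a replicate block, insulin genes left out, cells with over 5% of reads from other hormones left out, cells weighted equally (limma 3.58.1 on log2 of CPM plus 1) and each library left out. The setting with cells weighted equally took CPM on each cell's total reads, without TMM scaling. The scripts were tested on simulated data, among genes with many reads. Every gene was drawn with a single fixed dispersion that was not estimated from these data, so the recovered shares need not hold for real genes. In these simulations edgeR recovered 41% of 2-fold and 99% of 4-fold changes at G14.5 against G0 of the time course. In Acss2WT at G14.5 against G0 it recovered 27% and 99%. Named genes were members called with a mean of 5 CPM or more in a compared group, up to 10 in each direction, a fixed set of 8 carriers, and the 10 highest per kilobase; Slc1a5, Slc7a7 and Slc38a5 below that level, Slc38a1, Slc43a1 and Slc36a1, and the genes named from lists were picked after their values were seen. The members and gene lists were chosen with earlier results of these data known. Sequences are from RefSeq (GRCm38.p6). The 2 droplet samples were not analysed here.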

Additional observations from a re-analysis of the deposited data

Results flagged for a closer look

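In 3 cases every library of one set of mice moved against every library of the time course between G0 and G14.5. Slc38a2 rose in the time course (log2 fold change 0.92) but stood at 64.3 and 56.6 CPM in Acss2KO at G14.5, against 78.9 and 73.8 CPM at G0, a log2 fold change of -0.34. Slc7a1 rose in the time course (0.69) but stood at 14.4 and 15.2 CPM in Acss2KO at G14.5, against 17.4 and 15.3 CPM at G0 (-0.14), and at 20.2 and 22.1 CPM in HFD Acss2KO at G14.5, against 26.2 and 43.3 CPM at G0 (-0.71). None of these 3 values passed edgeR's test in its own set. The sets lie in separate tables, and the differences between them were not tested.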

How the results depend on the processing

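Of the counts of members called, 305 kept within 1.5 times of the reported value across alternatives other than leaving out a library, and 87 did not. Of the fold changes of called members, 413 kept their direction and call, 47 lost the call and 2 changed sign: Slc6a6 (0.0427) and Slc7a2 (0.0075) with A485 over both sera, when cells were weighted equally, which moved the median of all genes by 0.45. The setting with cells weighted equally also left out TMM scaling, so weighting and scaling cannot be told apart in it. The cause of the changes was not tested.

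With DESeq2 size factors in edgeR, the high-fat-diet (HFD) G14.5 comparison gave 0 calls. Without the insulin genes, A485 in NS gave 1, and without cells rich in other hormones G6.5 gave 2. Replicate numbers did not pair the libraries (correlations of same-numbered libraries between -0.165 and 0.157 in the time course). With a replicate block, HFD G14.5 gave 0 calls, p300KO against p300WT over the stages 2, A485 in MS 4 and A485 in NS 8, and G14.5 gave 6. The block ended the calls of Slc7a1 and Slc7a2 at G14.5, Slc6a19 at G18.5, Slc7a2 at HFD G14.5 and Slc1a1 and Slc38a5 with nifuroxazide, and of no other member.

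DESeq2 called 1 member at P2NL, P14NL, in Acss2KO against WT at G14.5, Stat3WT and Stat3KO at G14.5 against G0, the Stat3 interaction, HFD P7NL against G14.5 and HFD against SD. It called 2 at G6.5, in Acss2KO and in Stat3KO against WT at G18.5, at HFD G14.5 and between sera in the A485 set, 3 in p300WT and p300KO at G14.5 against G0 and with nifuroxazide in MS, and 4 at G3.5, G5.5, in Acss2WT, HFD Acss2WT and HFD Acss2KO at G14.5 and in p300KO against WT at G0. It called 5 at G12.5, with A485 in MS and between sera in the nifuroxazide set, 6 in p300KO over the stages and with nifuroxazide in NS, 7 in Acss2KO at G14.5 and 11 with A485 in NS.

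Cells weighted equally gave 0 calls at G5.5, P7NL, in p300KO against WT (over the stages and at G0) and in p300WT at G14.5, and 1 at G10.5, G12.5, in Acss2WT, Acss2KO and HFD Acss2WT at G14.5 and with nifuroxazide in MS. They gave 2 at G16.5, G18.5 and between sera in both sets, 4 at G14.5, 5 with A485 in NS and 7 in MS.

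Without a filter on low counts, any-group calls were 23. Counts were 1 in 7 comparisons reported with 0 (P7L against P7NL, Acss2KO over the stages and at G18.5, Stat3KO at G0, the Stat3 interaction, HFD Acss2KO over the stages and at G14.5), and 2 for Acss2KO and p300KO against WT at G14.5, p300KO at G14.5 against G0, nifuroxazide in MS and its sera. They were 3 at P2NL, P14NL, in Stat3WT and HFD Acss2WT at G14.5 and between the A485 sera, 4 at G3.5, G5.5, Stat3KO at G18.5, HFD G14.5, HFD P7NL, HFD Acss2KO at G14.5 and nifuroxazide in NS, and 5 at G6.5, G12.5, in Acss2KO and p300WT at G14.5 and in p300KO at G0. They were 6 with A485 in MS, 7 in p300KO over the stages and 11 with A485 in NS.

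Leaving out one library at a time gave 12 to 18 any-group calls, 0 to 1 at G5.5, 0 at G6.5 and P7NL, 2 to 3 at G8.5, 1 to 2 at G10.5, 0 to 3 at G12.5, 4 to 8 at G14.5, 1 to 5 at G16.5 and 1 to 4 at G18.5. In Acss2WT at G14.5 it gave 1, in Acss2KO 0 to 1, in Stat3KO 0 to 1, in p300WT 1, in HFD 0 to 1, in HFD Acss2WT 0 to 1 and in HFD Acss2KO 1 to 3. It gave 0 to 6 in p300KO over the stages, 0 to 1 in p300KO at G0, 0 to 1 in HFD Acss2KO over the stages, 8 to 12 with A485, 0 to 2 in NS, 1 to 5 in MS, 0 to 3 between its sera, 2 to 5 with nifuroxazide and 0 to 2 in NS, and 0 elsewhere.

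In the simulated data few libraries a group left many 2-fold changes uncalled, so a comparison without calls does not show that members were unchanged. Members under 1 CPM rest on few cells: at G14.5, one cell held up to 41.9% of a library's Slc7a11 reads.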

Other observations

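One p300WT library at G14.5 stood apart in several members and in amino acid response genes. Slc7a11 was at 9.98 CPM in replicate 2 and 0 CPM in replicate 1, Slc38a2 at 160 and 77.2 CPM, and Slc7a1 at 38.8 and 16.48 CPM. In the same libraries the 18 response genes summed to 1610 and 803 CPM, with Trib3 at 28.8 and 2.29 CPM and Chac1 at 122.8 and 14.54 CPM. No p300WT call at G14.5 among the members rested on this library alone.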
